A study of Saccharomyces cerevisiae with 26 samples.

Results

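The kinetochore subunit genes described here are 10 genes of budding yeast, chosen by name: NDC80 (YIL144W), SPC24 (YMR117C), SPC25 (YER018C), DSN1 (YIR010W), MTW1 (YAL034W-A), NSL1 (YPL233W), NNF1 (YJR112W), MIF2 (YKL089W), CSE4 (YKL049C) and CTF19 (YPL018W). Each had 1 probe set among the 9335 probe sets of the array table. Transcript levels were measured on 26 Affymetrix YG_S98 arrays hybridised with total RNA, 2 arrays for each of 13 groups. The study followed cells entering meiosis and asked how they respond when microtubules are perturbed, by the drug benomyl or by cold. Levels are log2 signals after quantile normalization, and differences are log2 differences ± the model's standard error with n = 2 arrays per group. A signal compares arrays for the same probe set and says nothing about one gene against another. A gene was called changed where limma's Benjamini-Hochberg adjusted p over all 7877 tested probe sets was under 0.05.

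The groups ran through a sporulation course. Cells in rich medium with 2% glucose (YPD) and in medium with 2% potassium acetate (YPA) form the pre-meiotic groups, and their labels give only the medium. For the later groups the labels describe 24 h of growth in YPD and overnight growth in YPA at 30 °C. For all of these but 1 they also describe transfer to sporulation medium kept at room temperature (pH 7.0, with potassium acetate at 0.3%). The exception is the first-set group sampled 4 h after induction, whose label does not give the medium. It is taken here to be the same sporulation medium. At 4 h the other cultures were filtered and resuspended, and then sampled 1 h or 4 h later. In the first set of 16 arrays they went into medium alone (1 h only), into medium with 0.4% DMSO (the solvent), or into medium with benomyl from a stock of 30 mg/ml in DMSO, given as 0.4% in the medium. A second set of 10 arrays held cells sampled before filtration, cells filtered into medium whose temperature the labels do not give, and cells moved into chilled medium with DMSO at 10 °C. The DMSO concentration of the chilled medium was not given, and the filtered controls of that set are not described as holding DMSO, so cold and solvent cannot be told apart there. The labels name no strain. They also do not say whether replicates were separate cultures, so p-values measure the spread between arrays, which may be technical.

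The kinetochore is the protein assembly that joins each centromere to spindle microtubules. In budding yeast it is built on a centromeric nucleosome that holds the histone H3 variant Cse4. Mif2, the yeast CENP-C, binds that nucleosome, and Ctf19 belongs to the inner layer beside it. The Mtw1 complex (Mtw1, Nnf1, Nsl1 and Dsn1) links the inner layer to the Ndc80 complex, whose subunits include Ndc80, Spc24 and Spc25 and which grips the microtubule. In early meiosis the outer kinetochore is taken apart and rebuilt before the divisions. NDC80 is known to be transcribed at that time as a long 5′-extended RNA from which little Ndc80 protein is made, and later as a short coding mRNA. Where the probes lie along the gene is not given in the sources used here, so the NDC80 signal may hold both RNAs.

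Of the 10 genes, 9 passed the filter on low signals, which required the highest group mean to exceed log2 5.44. SPC24 did not, with its highest group mean at 5.08, and it is given by its values. CTF19 passed narrowly, through the 5.56 of 1 group, and the group means of NSL1 lay between 5.04 and 6.16, so a small range for these genes is partly set by a low signal. NDC80 passed through its higher groups. Its means in glucose, acetate, benomyl at 1 h, both cold groups and the second set before and 1 h after filtration lay below the threshold. The sizes of NDC80 differences that involve these groups are uncertain. In bulk cultures, fewer cells at a stage and less RNA per cell cannot be told apart.

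Replicate arrays of 11 groups lay close together, with an SD of the difference between replicates of 0.18 to 0.32 over probe sets and a largest gap of 0.48 for any of the 10 genes. The benomyl 1 h pair stood apart with an SD of 0.62 and a correlation of 0.942. All 10 genes were lower on its replicate 2, with a median difference of -0.66, while 50.5% of all probe sets were lower there and the median over them was -0.01. The pair at 1 h after filtration in the second set had an SD of 0.50. In the first set, replicates 1 of 7 groups were scanned on 1 day and replicates 2 on another. The early meiotic gene HOP1, which encodes a chromosome axis protein, read 5.42 and 5.25 in acetate and 10.09 and 10.32 after 4 h in sporulation medium. The mating receptor gene STE2, a marker of haploid a cells, lay between 4.53 and 5.67 on the 26 arrays. STE2 was chosen after its values were seen, and the other mating genes measured are not described. Its range alone does not show whether haploid cells were present.

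**Figure D1:**
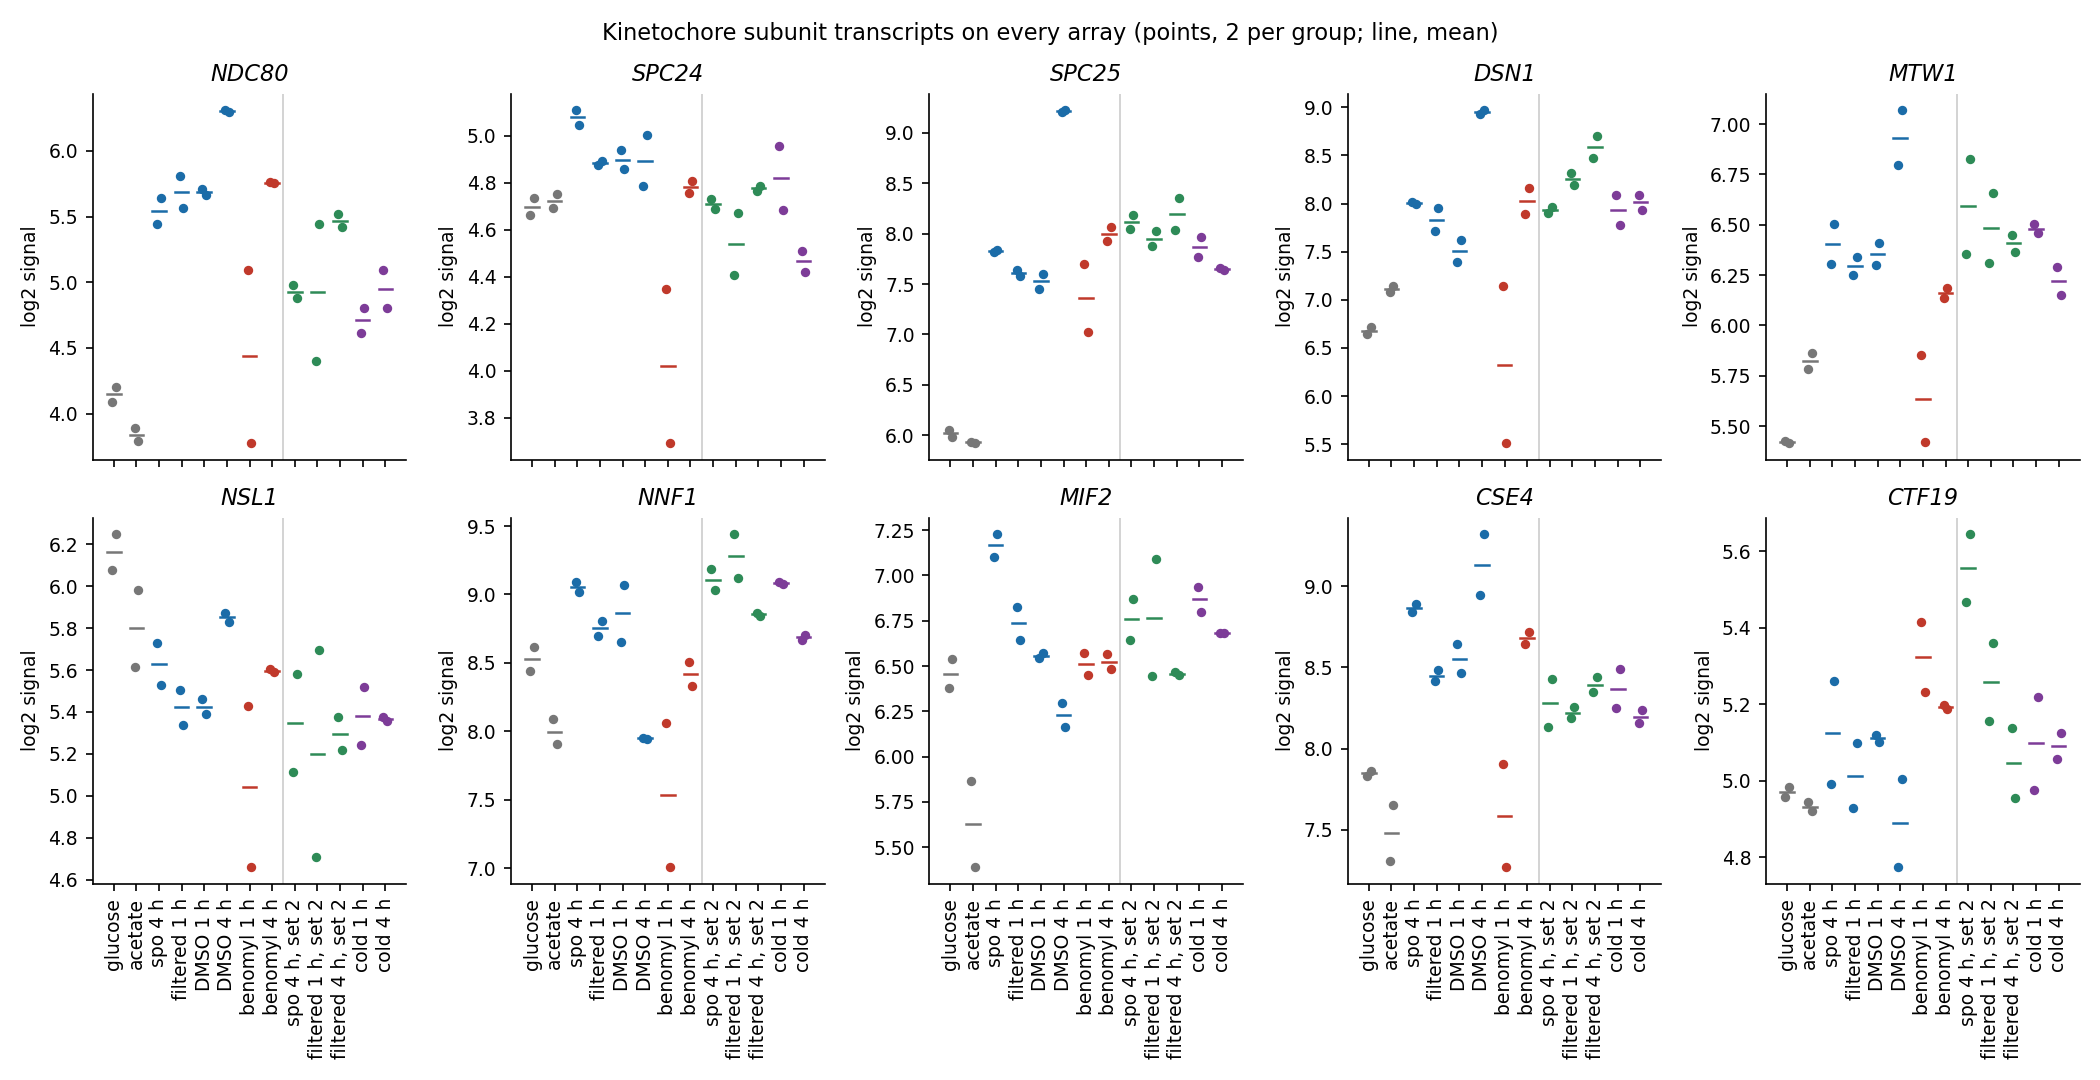
Log2 signal of each kinetochore gene (1 panel per gene, each with its own vertical range) on every array, with groups along the horizontal axis, 2 points per group and a line at their mean. SPC25, DSN1, MTW1, NDC80 and CSE4 are highest in DMSO at 4 h, and the benomyl 1 h points are the most widely spaced pair for NDC80, SPC25, SPC24, DSN1, NNF1 and CSE4.

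From glucose to acetate, MIF2 was the only member called in the main fit, and it fell. It read 6.38 and 6.54 in glucose and 5.87 and 5.39 in acetate, a difference of -0.83 ± 0.17 (adjusted p = 0.00148). The 2 groups did not overlap. The other 8 tested members lay between -0.53 for NNF1 and 0.43 for DSN1 and were not called. The call of MIF2 is 1 of 9 members, beside 17.7% of all probe sets called lower and 33.3% called in all. NNF1 was also called lower with values as deposited, with array weights and with only these 2 groups fitted, and MTW1 was called higher with median centring. In these settings 28.6% to 35.0% of all probe sets were called. The glucose arrays shared a scan day with no other group, and medium and scan day cannot be told apart in this comparison.

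After 4 h in sporulation medium, 7 of the 9 tested members rose relative to acetate, in every layer of the kinetochore, while 28.6% of all probe sets were called higher and 29.5% lower (58.1% in all). The median difference over the 10 measured genes was 0.98, beside -0.04 over all probe sets tested. In the Ndc80 complex, SPC25 read 5.93 and 5.92 in acetate and 7.82 and 7.84 in sporulation medium. That is a rise of 1.90 ± 0.16, or 3.73-fold (adjusted p = 1.73e-08), with no overlap between groups. NDC80 read 3.89 and 3.79 and then 5.45 and 5.64, a rise of 1.71 ± 0.31 (adjusted p = 0.000128). Its acetate readings lie below the filter threshold, so no fold is given. SPC24, below the filter, read 4.69 and 4.75 and then 5.11 and 5.05. Its difference of 0.36 had an adjusted p of 0.0776 when no filter was applied.

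The members nearest the centromere rose as well. MIF2 read 5.87 and 5.39 in acetate and 7.10 and 7.23 in sporulation medium, a rise of 1.54 ± 0.17 (adjusted p = 6.76e-07). CSE4 read 7.31 and 7.65 and then 8.84 and 8.89, a rise of 1.39 ± 0.18 (adjusted p = 2.85e-06). For both genes the sporulating arrays all lay above the acetate arrays.

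The Mtw1 complex was uneven. NNF1 read 8.09 and 7.91 in acetate and 9.09 and 9.02 in sporulation medium, a rise of 1.06 ± 0.22 (adjusted p = 0.000521). DSN1 went from 7.08 and 7.14 to 8.01 and 7.99, a rise of 0.89 ± 0.30 (adjusted p = 0.0171), and MTW1 from 5.79 and 5.86 to 6.31 and 6.50, a rise of 0.58 ± 0.17 (adjusted p = 0.00595). NSL1 read 5.62 and 5.98 and then 5.73 and 5.53, and its groups overlapped. CTF19 differed by 0.19 ± 0.14 and was not called either. The DSN1 call was lost when any of the 4 arrays was left out, with the difference then between 0.86 and 0.92, and the MTW1 call was lost without sporulation replicate 2.

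Filtration and the solvent had no called effect on these genes. At 1 h after filtration against before it in the first set, 0 of 9 members were called (2 had an unadjusted p under 0.05 in limma), with 3.08% of all probe sets called, and differences lay between -0.43 and 0.14. DMSO at 1 h against medium alone gave 0 of 9 in limma (0 at an unadjusted p under 0.05), with 0.571% of all probe sets called, and differences between -0.33 and 0.11.

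Between 1 h and 4 h in DMSO, 5 members changed, and they did not move together. SPC25, DSN1, MTW1 and CSE4 rose and NNF1 fell. This is 4 of 9 higher beside 17.8% of all probe sets, and 1 of 9 lower beside 25.8%, with 43.6% called in all. The median over the 10 measured genes was 0.50 and that over all probe sets tested was -0.15. In the same interval NDT80, the transcription factor of the middle sporulation genes, went from 7.84 and 6.87 to 9.26 and 9.22. The part of cell stage in these changes was not tested.

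SPC25 had the largest difference of the members in this interval. It read 7.45 and 7.60 at 1 h and 9.20 and 9.23 at 4 h, a rise of 1.69 ± 0.16 or 3.22-fold (adjusted p = 1.38e-07). The 2 arrays at 4 h were the highest SPC25 readings of the whole series. DSN1 read 7.39 and 7.62 and then 8.93 and 8.97, a rise of 1.45 ± 0.30 or 2.72-fold (adjusted p = 0.000816). For both genes the times differed by more than the gap between replicates.

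MTW1 and CSE4 rose by smaller amounts. MTW1 went from 6.30 and 6.41 to 6.80 and 7.07, a rise of 0.58 ± 0.17 (adjusted p = 0.00885). CSE4 went from 8.64 and 8.46 to 8.95 and 9.32, a rise of 0.58 ± 0.18 (adjusted p = 0.0132). The MTW1 call was lost without DMSO 4 h replicate 2 or DMSO 1 h replicate 1, and the CSE4 call without replicate 2 of either group.

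NNF1 went the other way from its partners in the Mtw1 complex. It read 8.65 and 9.07 at 1 h and 7.95 and 7.94 at 4 h, a difference of -0.91 ± 0.22 (adjusted p = 0.00276), and the groups did not overlap. The call was lost without DMSO 1 h replicate 2. NDC80 read 5.71 and 5.66 and then 6.31 and 6.30. Its groups did not overlap, but its difference of 0.62 ± 0.31 was not called (adjusted p = 0.114). NSL1, MIF2 and CTF19 differed by 0.43, -0.33 and -0.22 and were not called, and SPC24 differed by -0.01. With only these 2 groups fitted, NDC80 and NSL1 were called higher and MIF2 lower, beside 56.9% of all probe sets called in all. Array weights gave the same 3 added calls, beside 57.8%.

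**Figure D2:**
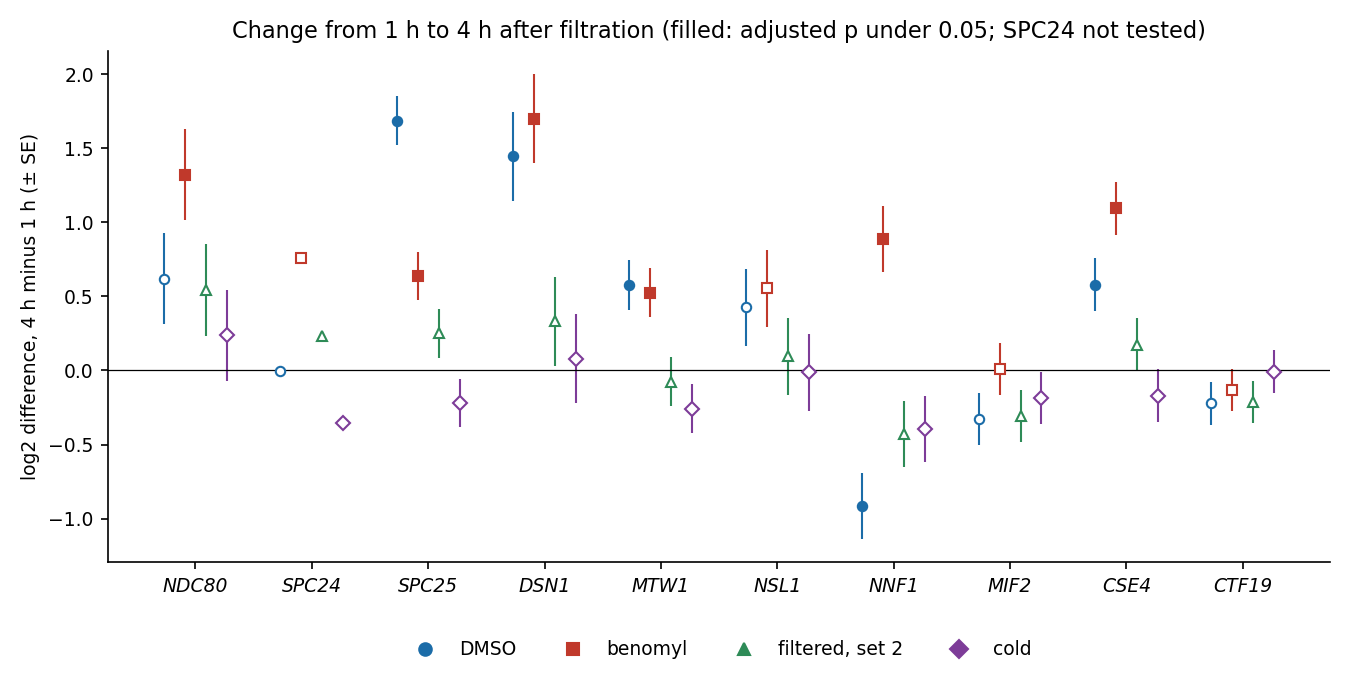
Log2 difference between 4 h and 1 h after filtration (vertical axis, ± SE) for each gene in DMSO, benomyl, the filtered controls of set 2 and cold. Filled symbols mark adjusted p under 0.05, and SPC24 was not tested and has no error bar. SPC25 and DSN1 rise by 1.69 and 1.45 in DMSO, NNF1 falls by 0.91 in DMSO and rises by 0.89 in benomyl, and no symbol is filled for set 2 or cold.

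One hour of benomyl lowered 5 of the 9 tested members relative to DMSO, in the Ndc80 complex, the Mtw1 complex and the centromeric nucleosome. All probe sets were called lower in 26.7% and higher in 25.6% of cases (52.3% in all). The median over the 10 measured genes was -0.80, and over all probe sets tested 0.01. Without replicate 2 of the benomyl group, the pair that stood apart, 3 of 9 were called lower beside 23.1% of all probe sets, and without replicate 1 there were 7 of 9, beside 29.8%. When only the arrays of these 2 groups were fitted, 0 members were called and 15.4% of all probe sets.

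NNF1 and CSE4 were lower on both benomyl arrays and stayed called without either one. NNF1 read 8.65 and 9.07 in DMSO and 8.06 and 7.01 in benomyl, a difference of -1.33 ± 0.22 (adjusted p = 7.09e-05), and -0.80 without replicate 2. CSE4 read 8.64 and 8.46 in DMSO and 7.90 and 7.27 in benomyl, a difference of -0.97 ± 0.18 (adjusted p = 0.000185), and -0.65 without replicate 2. MTW1 read 6.30 and 6.41 and then 5.85 and 5.42, a difference of -0.72 ± 0.17 (adjusted p = 0.00144). It was also called without either benomyl array, at -0.50 without replicate 2, but not when arrays were weighted by their quality.

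The calls of NDC80 and DSN1 rested on replicate 2. NDC80 read 5.71 and 5.66 in DMSO and 5.09 and 3.78 in benomyl, a difference of -1.25 ± 0.31 (adjusted p = 0.00246). Both benomyl readings of NDC80 lay below the filter threshold, so the size of its difference is uncertain. Within scan days the difference was -0.61 on the first day and -1.88 on the second, and without benomyl replicate 2 it was -0.59 and not called. DSN1 read 7.39 and 7.62 in DMSO and 7.14 and 5.51 in benomyl, a difference of -1.18 ± 0.30 (adjusted p = 0.00318). Within scan days it was -0.25 and -2.11, and without benomyl replicate 2 it was -0.37 and not called. In both genes the 2 groups did not overlap, and the gap between the benomyl arrays exceeded the distance from replicate 1 to DMSO.

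The remaining members were not called. SPC25 read 7.45 and 7.60 in DMSO and 7.70 and 7.03 in benomyl, and the groups overlapped. MIF2 read 6.54 and 6.57 and then 6.57 and 6.45. CTF19 was 0.21 ± 0.14 higher and NSL1 0.38 lower, neither called. SPC24 read 4.94 and 4.86 in DMSO and 4.35 and 3.69 in benomyl. Its difference of -0.88 had an adjusted p of 0.000252 when no filter was applied.

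Regulators of meiotic entry differed between the same arrays. IME2, a kinase that drives early meiosis, read 10.17 and 9.86 in DMSO and 8.21 and 6.04 in benomyl. IME1, the master regulator, read 13.10 and 12.97 in DMSO and 12.14 and 10.57 in benomyl. Both were lower on the replicate 2 array, as the kinetochore genes were, and both were called lower without it, by -1.80 and -0.90. Their part in the kinetochore differences was not tested.

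**Figure D3:**
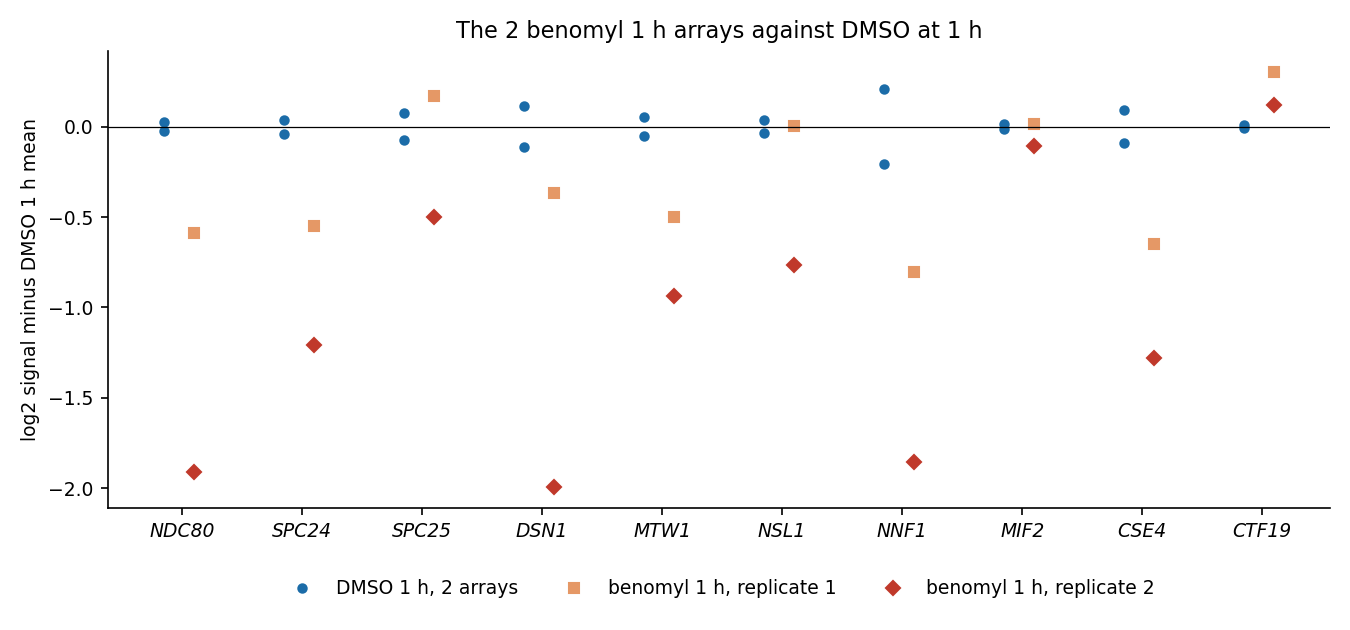
Log2 signal of each gene on the 2 benomyl 1 h arrays (square, replicate 1; diamond, replicate 2) and the 2 DMSO 1 h arrays (circles), each minus the DMSO 1 h mean (vertical axis). Replicate 2 is below replicate 1 for all 10 genes, and the gap is largest for DSN1, at 1.63.

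At 4 h, benomyl arrays were lower than DMSO arrays for 3 of the 9 tested members, SPC25, DSN1 and MTW1, beside 15.9% of all probe sets called lower and 32.6% called in all. All 3 were also called higher with time in DMSO. The 2 comparisons share the DMSO 4 h arrays, so high readings on those arrays enter both. The share of all probe sets called in both was not counted, so no result is drawn from the overlap, and the levels are given side by side. SPC25 read 9.20 and 9.23 in DMSO and 7.93 and 8.07 in benomyl, a difference of -1.22 ± 0.16 (adjusted p = 1.44e-05). Benomyl lay 2.33-fold below the solvent, with no overlap. MTW1 read 6.80 and 7.07 in DMSO and 6.14 and 6.19 in benomyl, a difference of -0.77 ± 0.17 (adjusted p = 0.00146). Both calls were kept when any 1 of the 4 arrays was left out. DSN1 read 8.93 and 8.97 in DMSO and 7.89 and 8.16 in benomyl, a difference of -0.93 ± 0.30 (adjusted p = 0.0245). Its call was lost when any of the 4 arrays was left out.

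The other members at 4 h were not called in the unweighted fit over all arrays. CSE4 was -0.45 ± 0.18 (adjusted p = 0.0594) and NDC80 -0.55 ± 0.31 (adjusted p = 0.194). NNF1, which fell with time in DMSO, read 7.95 and 7.94 in DMSO and 8.51 and 8.33 in benomyl, 0.47 ± 0.22 higher (adjusted p = 0.116). With only these 2 groups fitted, all 9 tested members were called, 6 lower and 3 higher, beside 51.6% of all probe sets. Array weights gave 8, with 5 lower and 3 higher, beside 52.3%. In both settings CSE4 and NDC80 were called lower and NNF1 higher. CSE4 was also called lower with values as deposited and with median centring. The benomyl arrays of this time lay close together, with a largest gap of 0.28 for any of the 10 genes. NDT80 was lower on them than in DMSO, at 7.80 and 8.29, and SPS1, a kinase of spore formation, read 10.11 on each against 11.16 and 11.19 in DMSO. HOP1 was higher, at 9.96 and 10.23 against 9.62 and 9.32. The part of cell stage in the kinetochore differences was not tested.

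Within benomyl, 6 of 9 tested members were higher at 4 h than at 1 h, beside 25.5% of all probe sets higher and 49.4% called in all. DSN1 rose by 1.70 ± 0.30, NDC80 by 1.32 ± 0.31, CSE4 by 1.09 ± 0.18, NNF1 by 0.89 ± 0.22, SPC25 by 0.64 ± 0.16 and MTW1 by 0.53 ± 0.17. The NDC80 readings at 1 h lay below the filter threshold. Without benomyl 1 h replicate 2, DSN1 at 0.89 and CSE4 at 0.78 remained called, beside 21.9% of all probe sets higher. With only the 2 benomyl groups fitted, 0 members were called and 15.6% of all probe sets.

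The benomyl effect differed with time for 2 members, by a test of the difference between the effects at 4 h and 1 h, beside 45.7% of all probe sets (24.2% with a positive and 21.5% with a negative difference). For SPC25 the effect was -0.17 at 1 h and -1.22 at 4 h, a difference of -1.05 ± 0.23 (adjusted p = 0.00112). For NNF1 it was -1.33 at 1 h and 0.47 at 4 h, a difference of 1.80 ± 0.31 (adjusted p = 0.000149). Both kept their call without benomyl 1 h replicate 2, at -1.39 and 1.27. NNF1 was called lower than its solvent control at 1 h, and SPC25 at 4 h. For DSN1 the difference was 0.25 and not called, and 1 array decided its direction: it was 1.07 without benomyl 1 h replicate 1 and -0.56 without replicate 2, called either way.

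**Figure D4:**
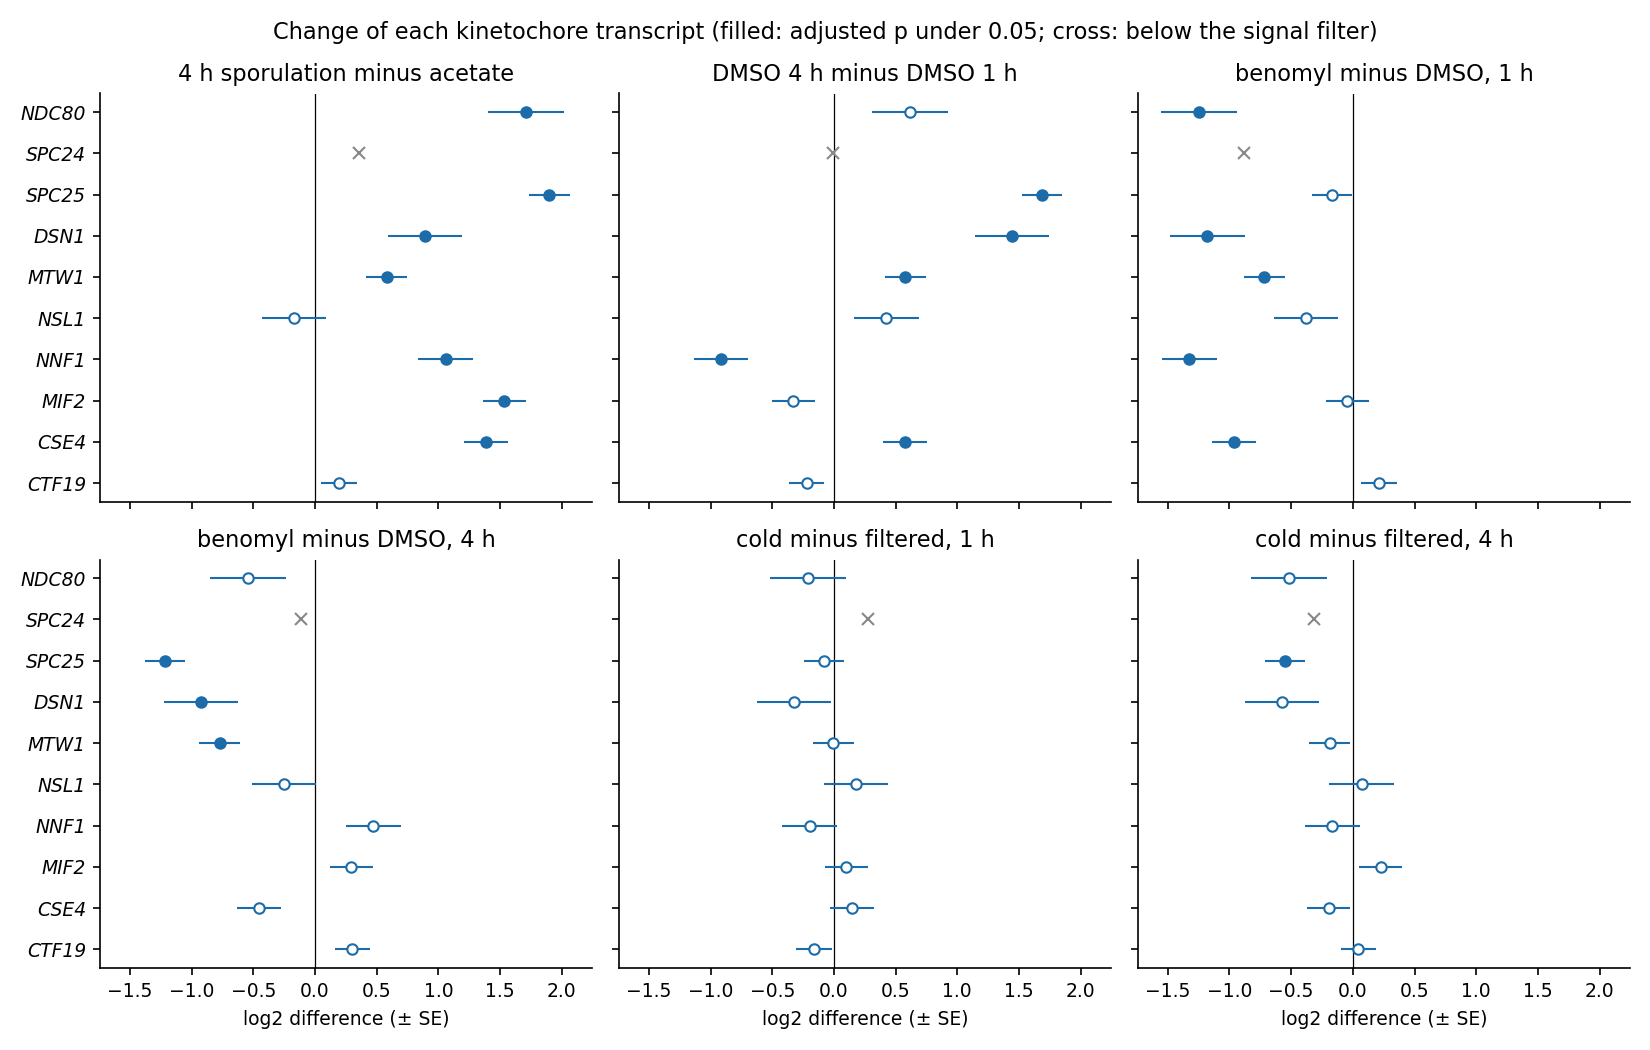
Log2 difference (horizontal axis, ± SE) of each gene in 6 comparisons: sporulation at 4 h against acetate, DMSO at 4 h against 1 h, and benomyl or cold against its control at 1 h and 4 h. Filled circles mark adjusted p under 0.05 and crosses SPC24, which was below the filter. In sporulation 7 circles are filled to the right of 0, in benomyl 5 and 3 to the left, and in cold 0 and 1.

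In the second set, SPC25 was the only one of the 9 tested members called between groups of that set in the unweighted fit over all arrays. At 1 h after filtration against before it, 0 of 9 members were called in limma (0 at an unadjusted p under 0.05), with 2.37% of all probe sets called, and differences lay between -0.30 and 0.32. From 1 h to 4 h in the filtered controls, 0 of 9 were called in limma (0 at an unadjusted p under 0.05), with 8.11% of all probe sets called. Leaving out either 1 h array gave 1 call: MIF2 at -0.63 without replicate 1, and NDC80 at 1.06 without replicate 2, with 7.12% and 13.3% of all probe sets called. SPC25, which rose by 1.69 in DMSO, read 7.88 and 8.02 at 1 h and 8.04 and 8.36 at 4 h in these controls. DSN1 read 8.32 and 8.19 and then 8.48 and 8.70. NDT80 and SPS1 were called higher over the same interval, by 1.51 ± 0.31 and 4.70 ± 0.27. NDC80 read 4.40 and 5.44 at 1 h and 5.52 and 5.42 at 4 h, and the 4 h arrays lay close to the upper reading of the 1 h pair.

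At 10 °C for 1 h against the filtered controls of that time, 0 of 9 members were called in limma (0 at an unadjusted p under 0.05), with 20.1% of all probe sets called. Differences lay between -0.32 and 0.18, and the SE of a member was 0.14 to 0.31. After 4 h, SPC25 alone was called, and it was lower, beside 16.8% of all probe sets lower and 36.1% called in all. It read 8.04 and 8.36 in the controls and 7.66 and 7.64 in the cold, a difference of -0.55 ± 0.16 (adjusted p = 0.0129). The call was lost without either cold array or without control replicate 2. DSN1 read 8.48 and 8.70 in the controls and 8.09 and 7.93 in the cold, and NDC80 5.52 and 5.42 and then 5.09 and 4.80. Neither pair of groups overlapped, and neither difference was called, at -0.57 ± 0.30 (adjusted p = 0.149) and -0.52 ± 0.31 (adjusted p = 0.203). Both were called lower with only these 2 groups fitted, beside 50.8% of all probe sets called in all. They were also called lower with array weights, beside 53.4%. From 1 h to 4 h in the cold 0 of 9 were called in limma (0 at an unadjusted p under 0.05), with 5.17% of all probe sets called. NDT80 read 5.90 and 6.03 in the cold at 4 h, a difference of -2.06 ± 0.31 from the controls. Its part in the SPC25 difference was not tested.

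A change of the cold effect with time was called for no member (0 of 9 called in limma, 0 at an unadjusted p under 0.05, with 7.83% of all probe sets called). Benomyl and cold, each against its own control, were compared across the sets. At 1 h the effects differed for 3 of 9 members, beside 42.2% of all probe sets (21.8% with a negative difference): CSE4 by -1.11 ± 0.25 (adjusted p = 0.00172), NNF1 by -1.13 ± 0.31 (adjusted p = 0.00768) and MTW1 by -0.71 ± 0.23 (adjusted p = 0.0204), each lower under benomyl. Without benomyl replicate 2, CSE4 and NNF1 were still called and MTW1 was not. At 4 h they differed for SPC25, by -0.67 ± 0.23 (adjusted p = 0.0381), beside 26.8% of all probe sets (13.4% with a negative difference). That call was lost without either benomyl array, either DMSO array, either cold array or control replicate 1. The sets also differ in solvent, so drug, cold and solvent cannot be told apart in these tests.

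The shared point of the sets was 1 h after filtration into medium. In limma 0 of 9 members were called between the sets there (3 at an unadjusted p under 0.05), with 22.5% of all probe sets called. NDC80 was -0.76 ± 0.31 in the second set relative to the first (adjusted p = 0.0827), and its 2 arrays there were 4.40 and 5.44.

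Ordered over all 13 groups, as a description that crosses both sets, SPC25 and NDC80 had their highest level in DMSO at 4 h and their lowest in acetate. The SPC25 mean of 9.21 in DMSO at 4 h stood 1.02 above the next group, the 4 h controls of the second set. Below it, 6 groups from 8.20 to 7.83 each overlapped the next in that order, and acetate and glucose lay at the bottom, at 5.93 and 6.02. The NDC80 mean of 6.30 stood 0.55 above the next, benomyl at 4 h, which overlapped the filtered cells at 1 h. DSN1, MTW1 and CSE4 were also highest in DMSO at 4 h, while MIF2 and SPC24 were highest at 4 h of sporulation before filtration, NNF1 and CTF19 in the second set and NSL1 in glucose.

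Over the 13 group means, Pearson's r among the 45 pairs of members ran from -0.62 to 0.925, with a median of 0.34. These are descriptions over groups that share a culture history and an array set. The highest pair was NDC80 with CSE4, and DSN1 with MTW1 reached 0.90. Pairs over 0.7 numbered 10 and pairs below 0 numbered 11, and each of those 11 held NSL1 or CTF19, whose signals were low. Within the Mtw1 complex, NNF1 reached 0.43 with DSN1 and 0.44 with MTW1. NSL1 lay at -0.06, -0.23 and -0.19 with DSN1, MTW1 and NNF1. Within the Ndc80 complex, NDC80 with SPC25 reached 0.81. SPC24, below the filter, reached 0.51 with NDC80 and 0.205 with SPC25. NSL1, also a Mtw1 complex gene, was highest in glucose, where MTW1 was lowest.

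Outside the 10 genes, the closest profiles over the 13 group means were those of EOS1 (0.977) and HUL4 (0.964) for NDC80 and of PTP1 and CAF120 (0.964 each) for SPC25. For DSN1 they were BMH1 (0.941) and TSC10 (0.934), for MTW1 RPL15B (0.930) and STP22 (0.926), and for CSE4 PSY3 (0.920) and HMI1 (0.918). NNF1 was nearest to HTB2 (0.935), one of the genes for histone H2B, and SFB3 (0.930), and MIF2 to GAS3 (0.939) and MAK3 (0.925). NSL1 was nearest to USE1 (0.954) and TOM40 (0.929), SPC24 to ERG13 (0.937) and NUP57 (0.918), and CTF19 to ATG15 (0.850) and YPL247C (0.837). EOS1 read 8.37 in acetate and 11.10 in DMSO at 4 h, the same extremes as NDC80.

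A wider list of 35 other kinetochore and centromere genes, of which 31 passed the filter, was set beside the members. In sporulation medium against acetate, 22 of the 31 rose and 2 fell, with a median of 0.63 over the 35, beside 28.6% of all probe sets higher and 29.5% lower. NKP2 and CTF3 of the Ctf19 complex rose by 2.44 ± 0.24 and 1.35 ± 0.14. DAM1 and ASK1 of the DASH complex, the ring that couples kinetochores to microtubules, rose by 1.71 ± 0.18 and 1.48 ± 0.19. IPL1, the Aurora kinase that corrects faulty attachments, and its partner SLI15 rose by 2.45 ± 0.28 and 2.44 ± 0.30. SPC105, another microtubule-binding subunit, rose by 1.49 ± 0.18, and CEP3, which binds centromere DNA, fell by 0.99.

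From 1 h to 4 h in DMSO, 5 of the 31 rose and 8 fell, shares close to the 17.8% higher and 25.8% lower of all probe sets. Of the DASH complex, HSK3 rose by 1.59 ± 0.17, DAD2 by 0.86 ± 0.16 and SPC19 by 0.60 ± 0.15, and OKP1 and WIP1 of the inner kinetochore rose by 0.72 and 0.61. Among the 8 that fell were PSH1, a ubiquitin ligase for Cse4, and SCM3, the Cse4 chaperone, by 0.61 and 0.49. The others that fell are not named here.

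Under benomyl at 1 h, 16 of the 31 were lower and 4 higher, beside 26.7% and 25.6% of all probe sets. Of the 4 higher, 1 was in the DASH complex, 2 in the Ctf19 complex and 1 among the centromere binding and Cse4 loading genes. Without replicate 1 of the benomyl group, ASK1 of the DASH complex differed by 1.86 and CNN1 of the Ctf19 complex by 1.37, beside -2.57 for SLI15 and -2.30 for IPL1. Without replicate 2 of that group 8 were lower and 5 higher, and the 25.8% lower lay near the 23.1% of all probe sets. SLI15 read 8.07 and 8.08 in DMSO and 7.14 and 5.50 in benomyl, a difference of -1.75 ± 0.30. IPL1 read 7.50 and 7.57 and then 6.78 and 5.24, a difference of -1.52 ± 0.28. Both were lower by less without replicate 2, at -0.93 and -0.75, and still called. WIP1 was lower by about the same amount on each day, at -1.25 and -1.30. At 4 h of benomyl against DMSO, 3 of the 31 were lower and 5 higher, with a median of 0.09 over the 35, beside 15.9% of all probe sets lower and 16.6% higher. HSK3 and DAD2 were among the lower, by -1.57 ± 0.17 and -0.93 ± 0.16, and ASK1 among the higher, by 0.58 ± 0.19.

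In the cold at 4 h, 13 of the 31 were lower and 4 higher, beside 16.8% of all probe sets lower and 19.4% higher. HSK3 was lower by -1.24 ± 0.17, SLI15 by -1.12 ± 0.30, WIP1 by -1.11 ± 0.14 and SPC19 by -0.81 ± 0.15. IPL1 was lower by -0.75 ± 0.28, and MHF1, a histone-fold protein, was higher by 0.83 ± 0.15. The members, with 1 of 9 called, had a median of -0.19 over the 10 measured, and the wider list one of -0.31 over 35.

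**Figure D5:**
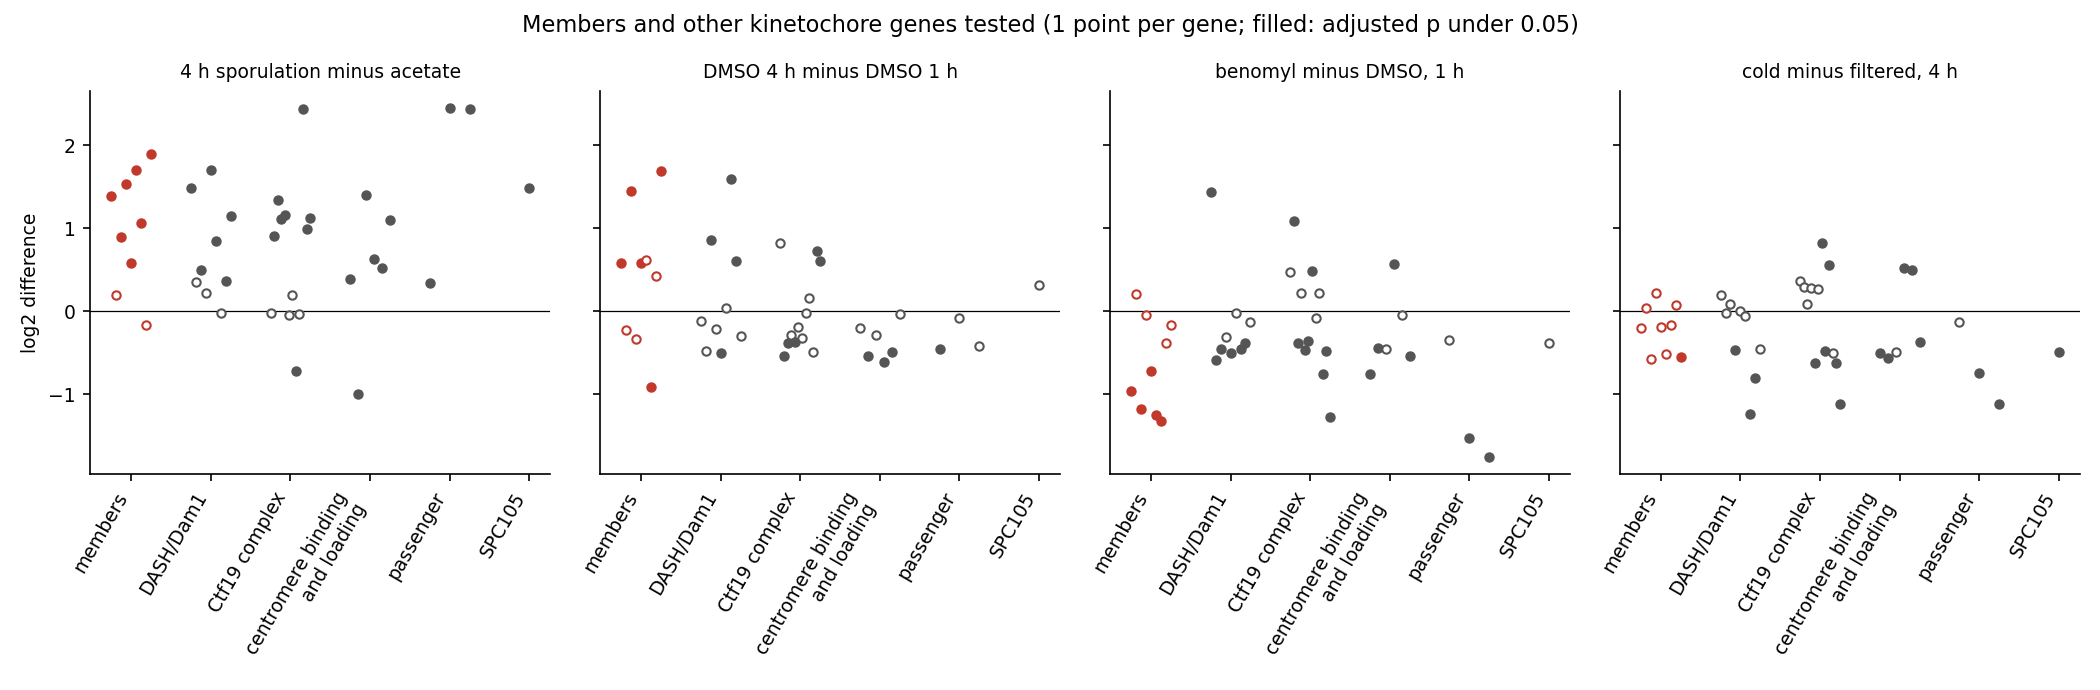
Log2 difference (vertical axis) of each tested member (red) and each tested gene of the wider kinetochore lists (grey) in 4 comparisons, with 1 point per gene and filled points at adjusted p under 0.05. In sporulation against acetate 7 of 9 members and 22 of 31 other genes are filled above 0, and in the cold 13 of the 31 are filled below 0.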

How the data were processed

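The authors deposited 1 table of processed log2 signals for 26 Affymetrix YG_S98 arrays. The method that made them is not given in the sources used here, and the base of the logarithm was taken from the range of the values, 2.09 to 15.1. For 16 arrays the authors also deposited instrument settings files, of another kind ("other" unit) with no expression values, whose scan days were used as a batch. There were 0 columns of other series. Array medians lay between 6.64 and 7.00, and 2 arrays per group limit the precision.

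Values were quantile normalized, 60 control probe sets were dropped, and 1398 probe sets were left out because no group mean passed log2 5.44 (the 25th percentile), leaving 7877. Gene names came from the platform annotation, updated by a RefSeq gene table used for names only: 6504 probe sets had 1 gene, 328 several and 2503 none. Groups were taken from the sample labels. limma 3.58.1 in R 4.3.3 was fitted with a mean per group over all arrays and an intensity trend (13 residual degrees of freedom, median prior 5.24), and p-values were adjusted over all probe sets. A gene with several probe sets is given by the brightest; among them SPC105 had 5, of which 4 passed the filter. The fit was tested on simulated data in which each probe set had the same spread in every group. The benomyl 1 h pair spread more than the others, so that test cannot show how the fit handles it. Residual correlations between groups of the same replicate number lay between -0.15 and 0.31 (first set) and between -0.29 and 0.39 (second set). The main fit did not use replicate number as a pairing, although in the first set it went with the scan day of 7 groups.

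The members and the lists were chosen with earlier results of these data known. Named were all members, up to 3 called genes per comparison from each wider list by smallest adjusted p, some genes of a fixed stage list, and the 2 genes nearest to each member by Pearson's r over 13 group means. DMC1, REC8, ZIP1, CLB1, SPR3 and SMK1 of the stage list are not described, and the stage genes given differ between comparisons. STE2 and the lower-ranked list genes were chosen after their values were seen, and the other mating genes measured are not described. DAD3, NDC10 and NBL1 were not analysed here, and no promoter search was run. Alternatives were the deposited values without normalization, centring on medians, a filter at the 40th percentile or none, no trend, array weights, a fit to only the groups of a contrast, a block for scan day or for replicate number, and the omission of each array.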

Additional observations from a re-analysis of the deposited data

Results flagged for a closer look

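Differences between effects, tested as contrasts of contrasts in limma, were called for 6 results among the members. The benomyl effect at 4 h minus that at 1 h was -1.05 for SPC25 (adjusted p = 0.00112) and 1.80 for NNF1 (adjusted p = 0.000149), and both calls were kept in each of 17 alternatives. The benomyl effect minus the cold effect at 1 h was -0.71 for MTW1 (adjusted p = 0.0204), -1.13 for NNF1 (adjusted p = 0.00768) and -1.11 for CSE4 (adjusted p = 0.00172). Of 16 alternatives, the NNF1 and CSE4 calls were each kept in 15 and the MTW1 call in 10. At 4 h that difference was -0.67 for SPC25 (adjusted p = 0.0381), and the call was kept in 8 of 16 alternatives.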

How the results depend on the processing

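With only the groups of a contrast fitted, counts were 2 for acetate against glucose, 8 for DMSO at 4 h against 1 h, 0 for benomyl against DMSO at 1 h, 9 at 4 h, 0 for benomyl at 4 h against 1 h, 3 for cold at 4 h and 1 for cold at 4 h against 1 h, and 0 and 3 for benomyl minus cold at 1 h and 4 h. With array weights they were 2 for acetate against glucose, 2 for filtration in the first set, 8 for DMSO over time, 8 for benomyl at 4 h, 3 for cold at 4 h, 1 for cold over time and 3 for benomyl minus cold at 4 h. Values as deposited gave 2 for acetate against glucose and 0 for benomyl minus cold at 4 h, and median centring gave 2 for acetate against glucose and 1 for the second set against the first. The cause of these shifts was not tested. The fit over all arrays gives each probe set 1 spread shared by the 13 groups. Array weights were 0.14 for the benomyl 1 h arrays and 0.30 for the 1 h filtered controls of the second set. The other arrays had weights of 0.69 to 2.05. Without 1 array, counts ran from 5 to 6 for sporulation against acetate, 3 to 5 for DMSO over time, 3 to 7 for benomyl at 1 h, 2 to 3 at 4 h and 2 to 7 for benomyl over time. They ran from 0 to 1 for the filtered controls of the second set over time, 0 to 1 for cold at 4 h, 0 to 2 for the second set against the first, 2 to 5 for benomyl at 4 h minus 1 h, 2 to 6 for benomyl minus cold at 1 h and 0 to 1 at 4 h. They stayed at 1 for acetate against glucose and at 0 for the others. The lone array left in a group was taken to vary like the other groups. The DSN1 difference between the benomyl effects reversed without benomyl 1 h replicate 2, to -0.56 from 0.25, and its values without 1 array ran up to 1.07. With the replicate block the counts matched those of the model without it, at 7 for sporulation, 5 for DMSO over time, 5 and 3 for benomyl at 1 h and 4 h and 6 for benomyl over time, and it changed no count of called members; over all probe sets it gave 24 calls for DMSO against medium, against 45. Scan day as a block left these counts as they were. Of 2142 member alternatives, 2032 counted as unchanged, 54 lost a call, 55 gained one and 1 reversed. The unchanged include 18 of SPC24, which was tested only without the filter and was judged by its value, not by a call. Without the filter limma called it for benomyl against DMSO at 1 h (adjusted p = 0.000252), benomyl at 4 h against 1 h (0.000998), the benomyl effect at 4 h minus 1 h (0.0136) and benomyl minus cold at 1 h (0.000739).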
